A study of Mus musculus with 6 samples.

Results

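The enzyme genes of serine, folate-bound carbon and asparagine synthesis were followed by RNA-seq in SaOS2, an osteosarcoma cell line of human origin, as the labels name the cells. The set was chosen by symbol, with earlier results of these data known. It holds 10 of the 17144 genes in the deposited tables: PHGDH, PSAT1 and PSPH for serine, SHMT2, MTHFD2, MTHFD1L and ALDH1L2 for the mitochondrial folate arm, SHMT1 and MTHFD1 for the cytosolic arm, and ASNS for asparagine. All 10 were among the 12682 genes that passed the filter on low counts. Group D has 3 libraries and group C has 3, named by the letters of their titles. The series title concerns a compound called DDTC(I), but no label says which letter received it, at what dose or for how long, or whether replicates were grown apart. The p-values therefore reflect only how far these libraries spread, which may be technical.

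Serine is made in the cytosol from a glycolytic intermediate by a dehydrogenase (PHGDH), an aminotransferase (PSAT1) and a phosphatase (PSPH) acting in turn. Serine hydroxymethyltransferases then pass a carbon unit from serine to tetrahydrofolate, leaving glycine, and the folate enzymes oxidise that unit to formate or use it for purines, thymidylate and methionine. The chain is present in parallel forms in mitochondria and cytosol. In proliferating cells serine is mostly oxidised in mitochondria, with formate exported to the cytosol. Several of these genes, ASNS most prominently, are known targets of ATF4, the transcription factor of the amino acid and integrated stress responses.

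Library totals lay between 18446443 and 20602771 counts. Of 11 markers of the line, 8 were high enough to be tested, and SP7, BGLAP and IBSP were not. Of the 8, 1 was called higher (12.5%) and 5 lower (62.5%) in D, beside 26.8% and 27.7% of all tested genes. RUNX2, which directs osteoblast differentiation, had 9.14 ± 1.97 CPM (counts relative to the TMM-scaled library total) in D and 19.6 ± 1.73 in C (SD, n = 3 each, as throughout), and COL1A1, a collagen I chain, had 4.96 ± 0.585 CPM in D and 23.3 ± 0.963 in C. ALPL, the alkaline phosphatase for which SaOS2 is known, had 0.657 ± 0.138 CPM in D and 0.533 ± 0.145 in C. This low level goes against the label, and the labels also name the mouse although the symbols are human, which leaves doubt about what the cells are. The marker called higher was SPP1, the osteopontin gene, with 2.38 ± 0.659 CPM in D and 0.341 ± 0.219 in C. RB1, the retinoblastoma gene, had 47.8 ± 11.7 CPM in D and 35.8 ± 1.36 in C and was not called (log2 fold change 0.42, adjusted p = 0.063, edgeR), but was called without D replicate 3 (0.56), with RLE factors or DESeq2 (0.44 each) and with length trends removed (0.48). Summed over the line markers the level was 779 to 851 CPM in D and 2039 to 2394 in C, most of it SPARC, a bone matrix protein gene with 681 ± 45.2 CPM in D and 1913 ± 162 in C. The 7 epithelial markers summed to 125 to 161 CPM in D and 83.9 to 93.4 in C. Of 5 tested, 3 were called higher (60%) and 1 lower (20%), beside the same shares of all tested genes. ESRP1, an epithelial splicing factor gene, had 22.6 ± 2.14 CPM in D and 1.35 ± 0.0705 in C, CDH1, the E-cadherin gene, 1.65 ± 0.588 and 0.451 ± 0.0763, KRT18, a keratin gene, 71.4 ± 12.7 and 38.4 ± 2.65, and CLDN4, a tight junction gene, 0.834 ± 0.375 and 3.25 ± 0.144, in D and C, while EPCAM was near zero in both (0.253 ± 0.128 and 0.208 ± 0.0676). KRT8, another keratin gene, was not called, with 42.2 ± 5.22 CPM in D and 43.9 ± 3.26 in C. KRT19 was near zero in both (0.310 ± 0.0742 and 0.399 ± 0.110). The 5 endothelial markers summed to 14.3 to 15.5 CPM in D and 20.2 to 25.1 in C. Of 4 tested, 2 were called lower (50%) and none higher, beside 27.7% and 26.8% of all tested genes. These were CDH5, with 0.551 ± 0.0640 CPM in D and 4.24 ± 0.522 in C, and PECAM1, with 11.4 ± 0.941 and 15.4 ± 3.12. The 6 hematopoietic markers did not separate the groups (459 to 501 CPM in D and 478 to 499 in C), and nearly all of their sum was CD68, with PTPRC at 0.128 ± 0.0248 and 0.292 ± 0.172 CPM in D and C. The part of these differences in the results below was not tested. In bulk RNA, fewer cells of a kind and less RNA per cell cannot be told apart.

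The asparagine synthetase gene, 2 of the 3 serine synthesis genes and 3 of the 4 mitochondrial folate genes rose in D, each by at least 2-fold, while neither cytosolic folate gene rose. SHMT2 was under 2-fold without TMM scaling (log2 fold change 0.92 with library size only and 0.91 on both FPKM scales). Of the 10 genes, 6 were called higher (60%) and 1 lower (10%) at a Benjamini-Hochberg adjusted p under 0.05 in the edgeR quasi-likelihood test over all genes. Of all genes tested, 26.8% were called higher and 27.7% lower, and 8.37% were called higher at 2-fold or more, as all 6 of these were. The median log2 fold change was 1.17 over the 10 genes and −0.02 over all tested genes. The rises ran from 2.10-fold for SHMT2 to 4.49-fold for ASNS, and the log2 fold change of each of the 6 exceeded that of 92.5% to 98.1% of all tested genes. In CPM, the 3 D libraries lay above the 3 C libraries for 7 of the 10 genes and below them for 1, against 30.6% and 32.1% of all tested genes. MTHFD1 counted among the 7 by 155.0 against 154.8 CPM. In FPKM its D replicate 3 (44.9) lay below all C libraries (45.1 to 51.9). PSPH was lower in every D library in FPKM (7.89 to 9.07, against 10.1 to 11.8 in C). The 6 rises were called in all 16 alternative settings.

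**Figure D1:**
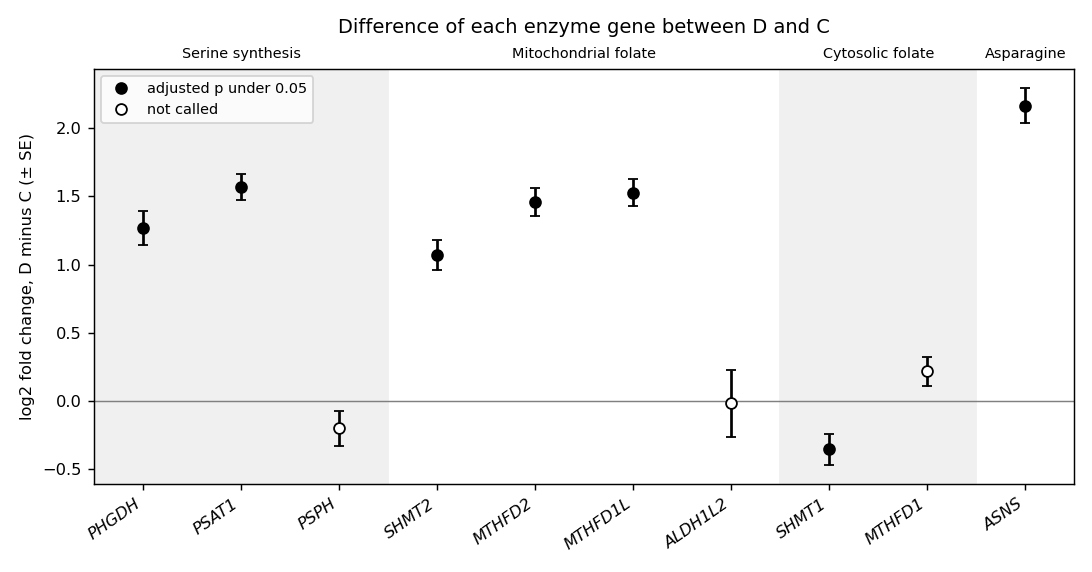
The log2 fold change of each enzyme gene, D minus C, with its standard error; filled points passed an adjusted p of 0.05. ASNS stands highest at 2.17, PHGDH, PSAT1, SHMT2, MTHFD2 and MTHFD1L lie between 1.07 and 1.57, and PSPH, ALDH1L2, MTHFD1 and SHMT1 lie between −0.36 and 0.22.

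The first 2 enzymes of serine synthesis rose and the last did not. PHGDH, the dehydrogenase that commits the glycolytic intermediate to serine, had 625, 568 and 744 CPM in D replicates 1, 2 and 3, against 268, 275 and 261 in the C replicates. The D libraries were all higher and spread more widely than the C libraries, with a log2 fold change of 1.27 ± 0.12 (SE; adjusted p = 7.9e-05, edgeR). PSAT1, the aminotransferase that takes nitrogen from glutamate, had 514, 505 and 530 CPM in D and 170, 180 and 172 in C. Its libraries were tight in both groups, with a coefficient of variation of 2.47% in D and 3.11% in C, and its log2 fold change was 1.57 ± 0.09 (adjusted p = 1.1e-05, edgeR).

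PSPH, the phosphatase that releases serine, had 26.7, 25.6 and 31.2 CPM in D and 30.7, 35.4 and 30.1 in C. The groups overlapped through D replicate 3, and the log2 fold change of −0.20 ± 0.13 was not called (adjusted p = 0.2, edgeR). Without composition scaling it was called lower (library size only, −0.36; log2(FPKM + 1), −0.32). PSPH has a close partial copy in the human genome, and how reads were divided between such copies is not given in the sources used here.

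In the mitochondrial arm the 3 genes that carry serine to formate rose. SHMT2, which splits serine into glycine and a folate-bound carbon, had 607, 543 and 647 CPM in D and 269, 293 and 293 in C, a log2 fold change of 1.07 ± 0.11 (adjusted p = 9.7e-05, edgeR). MTHFD2, the dehydrogenase and cyclohydrolase that acts next, had 561, 572 and 636 CPM in D and 217, 222 and 204 in C, a log2 fold change of 1.46 ± 0.10 (adjusted p = 1.9e-05, edgeR). MTHFD1L, which releases formate, had 186, 178 and 197 CPM in D and 62.3, 68.2 and 64.3 in C, a log2 fold change of 1.53 ± 0.10 (adjusted p = 1.5e-05, edgeR). For each of these genes the lowest D library was well above the highest C library.

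ALDH1L2, the mitochondrial enzyme that instead oxidises the unit to carbon dioxide while making NADPH, did not move with them. It had 74.6, 101 and 46.6 CPM in D and 82.2, 65.2 and 78.0 in C. The D libraries lay on both sides of the C libraries, and the log2 fold change was −0.02 ± 0.24 (adjusted p = 0.95, edgeR). Its coefficient of variation, 36.9% in D and 11.8% in C, was the widest of the 10 genes in both groups. Without D replicate 2 the log2 fold change was −0.28 and without D replicate 3 it was 0.24, and neither was called.

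The D libraries also differed from each other along gene length, and the length of ALDH1L2 implied by the deposited values is 8057 bp, against a median of 3789.5 bp over all genes. The slope of log2 CPM on log2 length, taken against the D mean, was 0.0126, 0.1704 and −0.183 in D replicates 1, 2 and 3. Taken against the C mean, it was −0.0012, −0.0492 and 0.0504 in C replicates 1, 2 and 3. Relative to the C mean, log2 CPM of ALDH1L2 was −0.00, 0.44 and −0.68 in D replicates 1, 2 and 3, the order of the D slopes. PHGDH, of 7328 bp, went the other way, with 1.22, 1.08 and 1.47, and MTHFD1L, the longest at 13295 bp, had 1.52, 1.45 and 1.60. With length trends taken out of every library, ALDH1L2 had a log2 fold change of 0.15 ± 0.15 (adjusted p = 0.4, edgeR), PHGDH 1.48 ± 0.17 and MTHFD1L 1.85 ± 0.19. Unlike the slopes above, those trends were taken against the mean of all libraries. Any length trend between D and C was thus removed as well, and its size is not given here.

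**Figure D2:**
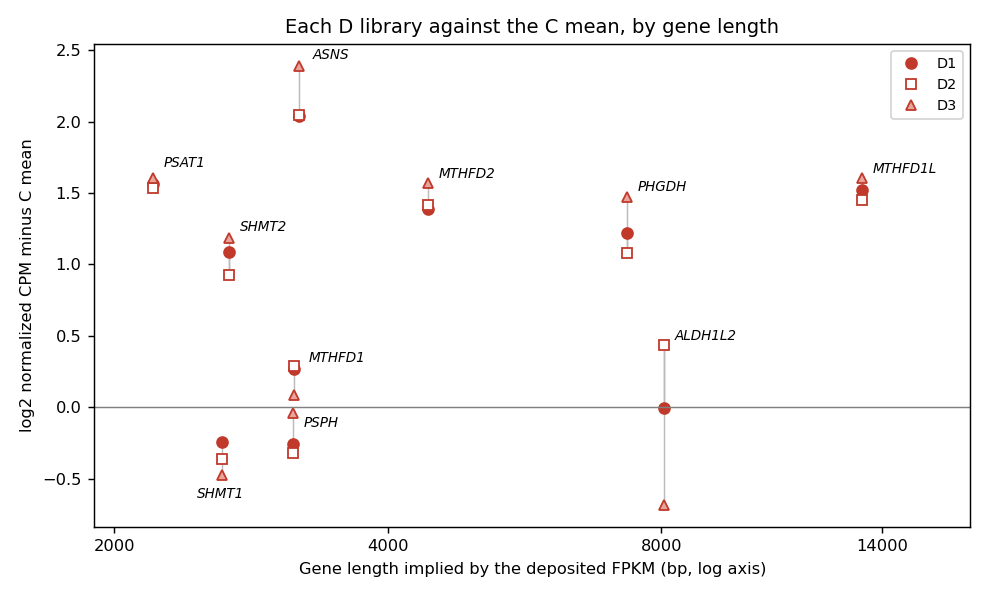
Log2 normalized CPM of each D library minus the C mean (vertical axis) against the gene length implied by the deposited FPKM (horizontal, log axis); symbols mark D1, D2 and D3. The 3 symbols of ALDH1L2 span −0.68 to 0.44 across zero, while those of the longest gene, MTHFD1L, lie between 1.45 and 1.60.

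In the cytosolic arm neither gene rose. SHMT1, the cytosolic counterpart of SHMT2, had 20.7, 19.1 and 17.6 CPM in D and 23.8, 25.7 and 24.0 in C. All D libraries were lower, and the log2 fold change was −0.36 ± 0.11 (adjusted p = 0.026, edgeR). The call was lost without C replicate 1 (−0.38), C replicate 2 (−0.32) or C replicate 3 (−0.38), with the D libraries still below the C libraries. MTHFD1, a single protein that carries the dehydrogenase, cyclohydrolase and formate-joining steps of the cytosol, had 176, 178 and 155.0 CPM in D and 135, 148 and 154.8 in C. The groups touched at replicate 3, and its log2 fold change of 0.22 ± 0.11 was not called (adjusted p = 0.11, edgeR). Without D replicate 3 it was 0.29 and was called (adjusted p = 0.02, edgeR).

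ASNS, which makes asparagine from aspartate with nitrogen from glutamine, had the largest rise of the 10. It had 462, 463 and 588 CPM in D and 114, 118 and 104 in C. The lowest D library was far above the highest C library, and the log2 fold change was 2.17 ± 0.13 (adjusted p = 1.1e-05, edgeR). In CPM, D replicate 3 stood highest, as it did for PHGDH, PSAT1, SHMT2, MTHFD2 and MTHFD1L. In the deposited FPKM this did not hold for PSAT1, with 224, 222 and 220 in D replicates 1, 2 and 3.

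Levels of different genes were set side by side in the deposited FPKM, which divide by gene length and library total without TMM scaling. The order of the genes therefore depends on the lengths the authors used, from 2206 bp for PSAT1 to 13295 bp for MTHFD1L, which are the same in every library. In D the order was PSAT1 (222 ± 2.04 FPKM), SHMT2 (212 ± 13.2), ASNS (149 ± 16.4), MTHFD2 (126 ± 4.88), PHGDH (83.3 ± 8.93), MTHFD1 (51.1 ± 5.4), MTHFD1L (13.3 ± 0.312), ALDH1L2 (8.79 ± 3.45), PSPH (8.38 ± 0.615) and SHMT1 (6.90 ± 0.722). In C it was SHMT2 (112 ± 5.51), PSAT1 (83.1 ± 2.39), MTHFD2 (51.0 ± 2.12), MTHFD1 (48.8 ± 3.43), PHGDH (38.5 ± 0.881), ASNS (37.1 ± 2.19), PSPH (10.7 ± 0.931), ALDH1L2 (9.83 ± 1.18), SHMT1 (9.81 ± 0.386) and MTHFD1L (5.15 ± 0.226). Neighbours whose libraries overlapped were PSAT1 with SHMT2 and ALDH1L2 with PSPH in D, and MTHFD2 with MTHFD1, PHGDH with ASNS, PSPH with ALDH1L2 and ALDH1L2 with SHMT1 in C. ASNS thus stood above MTHFD2 and PHGDH in D and below MTHFD2 in C, and MTHFD1L stood above PSPH, ALDH1L2 and SHMT1 in D and below all of them in C.

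**Figure D3:**
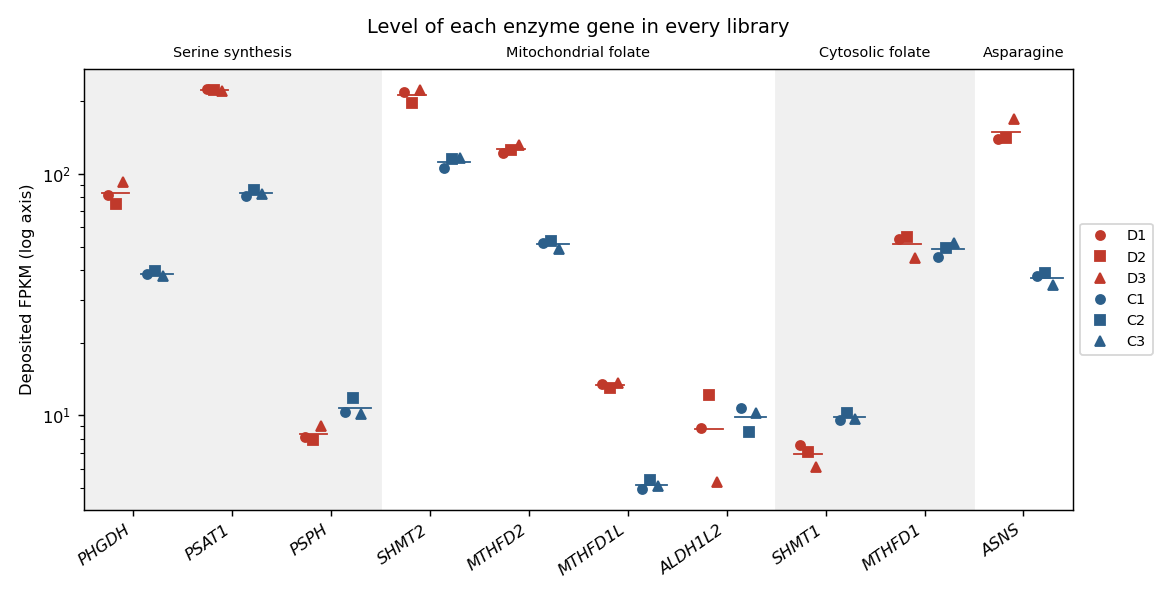
Deposited FPKM of each enzyme gene (log axis) in every library, D in red left of C in blue, with a line at each group mean. SHMT2 and PSAT1 lie highest in both groups, and the lowest gene is SHMT1 in D (6.90) and MTHFD1L in C (5.15).

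Summed over the 10 genes, the level was 876, 855 and 912 FPKM in D and 396, 417 and 407 in C. The 4 mitochondrial folate genes together had 362, 347 and 371 FPKM in D and 173, 182 and 180 in C. The pair of cytosolic genes had 61.1, 61.9 and 51.1 FPKM in D and 54.7, 59.7 and 61.6 in C, which overlap. The cytosolic genes therefore held 6.6% of the summed FPKM of the set in D and 14.4% in C. Their own sum was 58 ± 6.1 FPKM in D and 58.6 ± 3.6 in C. The mitochondrial folate genes did not gain in share, with 40.9% in D and 43.9% in C. The serine genes held 35.6% in D and 32.6% in C, and ASNS held 16.9% in D and 9.1% in C.

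Mitochondrial and cytosolic enzymes of the same step were compared as ratios within a library, which library scaling cannot change. SHMT2 exceeded SHMT1 by 28.9, 28.0 and 36.1 times in the D replicates and by 11.1, 11.2 and 12.0 times in the C replicates. The log2 ratio was 4.95 ± 0.201 (SD) in D and 3.52 ± 0.061 in C, a difference of 1.43. MTHFD2 to MTHFD1 was 2.27, 2.28 and 2.92 in D and 1.145, 1.07 and 0.937 in C, a log2 difference of 1.24. The dehydrogenase genes were thus at nearly equal FPKM in C, with MTHFD2 the higher of the pair in D.

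MTHFD1L to MTHFD1 was 0.2515, 0.237 and 0.302 in D and 0.109, 0.109 and 0.0986 in C, a log2 difference of 1.31. For each of these 3 ratios every D library was above every C library. The formyl-folate dehydrogenases went the other way: ALDH1L2 to its cytosolic counterpart ALDH1L1 was 1.65, 2.185 and 1.12 in D and 2.71, 2.38 and 3.24 in C, a log2 difference of −0.79. Of that pair ALDH1L1 was called higher, with 19.0 ± 1.08 CPM in D and 11.7 ± 1.34 in C (log2 fold change 0.70 ± 0.13, adjusted p = 0.0018, edgeR). Within mitochondria, MTHFD2 to MTHFD2L, a related dehydrogenase, was 238, 254 and 206 in D and 143, 121 and 143 in C, a log2 difference of 0.77.

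Each of the 5 ratios gave an exact 2-sided permutation p of 0.1, the smallest that 3 against 3 libraries allow (0.1 after Benjamini-Hochberg adjustment over the 5), so none can reach 0.05 in this design. MTHFD2L itself rose to 4.86 ± 0.863 CPM in D, against 3.01 ± 0.402 in C (log2 fold change 0.69 ± 0.19, adjusted p = 0.014, edgeR), a call lost without C replicate 1 (0.65) or C replicate 3 (0.61) and on log2(FPKM + 0.1) (0.43).

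**Figure D4:**
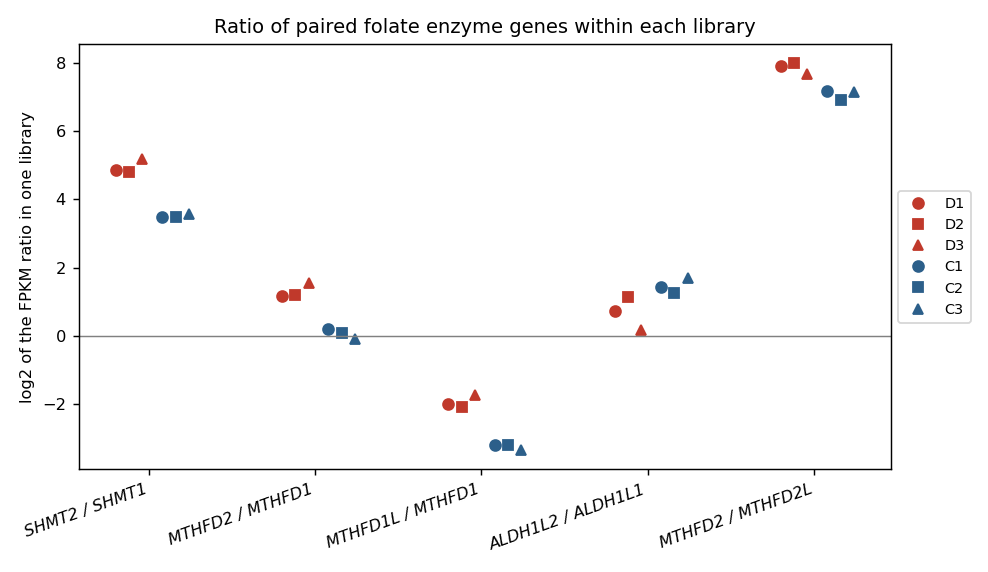
Log2 of the FPKM ratio of paired folate enzyme genes in each library, D in red left of C in blue. The mitochondrial gene gains on the cytosolic one in D for SHMT2/SHMT1, MTHFD2/MTHFD1 and MTHFD1L/MTHFD1, and ALDH1L2/ALDH1L1 is lower in D by 0.79.

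The neighbouring pathways held called genes in both directions. Of 77 other genes listed for folate, glycine, methionine, purine and amino acid metabolism, 64 were tested, and 21 were called higher (32.8%) and 17 lower (26.6%), beside the 26.8% and 27.7% of all tested genes. Their median log2 fold change was 0.07.

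Of 13 other folate genes tested, 3 were called higher (23.1%) and 3 lower (23.1%), near the 26.8% and 27.7% of all tested genes. SLC46A1, the proton-coupled folate transporter, fell to 0.746 ± 0.216 CPM in D, against 3.26 ± 0.227 in C (log2 fold change −2.11 ± 0.24). It had only 14, 18 and 9 counts in D and 62, 76 and 65 in C, so the size is uncertain. TYMS, of thymidylate synthesis, fell to 74.5 ± 5.11 CPM in D, against 131 ± 3.31 in C (−0.82 ± 0.10). SLC25A32, the mitochondrial folate carrier, had 142 ± 14.2 CPM in D and 113 ± 5.54 in C (0.33 ± 0.11, adjusted p = 0.031, edgeR). The rise of SLC25A32 was not called with library size only or on either FPKM scale (0.17 each), or without C replicate 1 (0.31), C replicate 2 (0.36) or C replicate 3 (0.30). The number of folate genes called higher was 5 without D replicate 3 and 1 without C replicate 1 or C replicate 3 or on either FPKM scale.

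Of 14 tested genes that use or move glycine and serine, 2 were called higher (14.3%) and 5 lower (35.7%), beside 26.8% and 27.7% of all tested genes. SFXN1 and SFXN3, sideroflexins that bring serine into mitochondria, fell: SFXN1 to 43.6 ± 1.37 CPM in D, against 80.8 ± 2.68 in C (−0.89 ± 0.10), and SFXN3 to 37.8 ± 0.334 CPM in D, against 71.2 ± 2.59 in C (−0.91 ± 0.10). AMT, a subunit of the glycine cleavage system, also fell (−1.10 ± 0.25), at 0.642 ± 0.0883 CPM in D and 1.38 ± 0.219 in C. It had only 10, 12 and 13 counts in D and 23, 29 and 34 in C, so the size is uncertain. SDSL, a serine dehydratase-like gene, rose to 29.3 ± 8.09 CPM in D, against 12.2 ± 0.896 in C (1.27 ± 0.20).

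Of 11 tested genes of the methionine cycle and transsulfuration, 4 were called higher (36.4%) and 1 lower (9.09%), beside 26.8% and 27.7% of all tested genes. Transsulfuration is the route that carries the sulfur of homocysteine to cysteine with serine as carbon donor. CTH, its last enzyme, rose to 126 ± 12.3 CPM in D, against 25.8 ± 2.09 in C (2.29 ± 0.12), and CBS, which joins serine to homocysteine, to 9.43 ± 2.36 CPM in D, against 3.82 ± 1.04 in C (1.30 ± 0.25). CBS has a near-identical copy, so the division of its reads is uncertain. The fall was that of AHCYL1 (−0.29 ± 0.10), and the number called lower was 0 without any one of the C libraries, without D replicate 1 or without D replicate 3, 0 with RLE factors or the replicate number as a block, and 2 without D replicate 2, with library size only or on either FPKM scale.

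Purine synthesis as a route takes folate-bound carbon, though not at the step of every gene listed. Of its 13 genes, 6 were called higher (46.2%) and 4 lower (30.8%), beside 26.8% and 27.7% of all tested genes. PRPS2, a source of phosphoribosyl pyrophosphate, fell to 27.5 ± 0.975 CPM in D, against 55.3 ± 2.42 in C (−1.01 ± 0.10). IMPDH1, of the guanine branch, fell to 36.5 ± 1.74 CPM in D, against 78.8 ± 3.83 in C (−1.11 ± 0.10). The more highly expressed IMPDH2 rose, with 490 ± 51.4 CPM in D and 344 ± 23.2 in C (0.51 ± 0.12). GART (0.31 ± 0.09), ADSL (0.62 ± 0.12), ATIC (0.54 ± 0.11) and ADSS2 (0.89 ± 0.11) were also called higher. PPAT (−0.74 ± 0.12) and PAICS (−0.30 ± 0.10) were also called lower. With library size only, 5 were called higher and 6 lower. ADSS1 was called higher on 12, 12 and 17 counts in D and 3, 6 and 1 in C, too few to give a size.

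For asparagine, aspartate, glutamine, alanine, proline and the urea cycle, 13 genes were tested. Of these, 6 were called higher (46.2%) and 4 lower (30.8%), beside 26.8% and 27.7% of all tested genes. GOT1, the cytosolic aminotransferase of aspartate, rose to 235 ± 30.6 CPM in D, against 76.7 ± 3.25 in C (1.62 ± 0.12), and GPT2, the mitochondrial aminotransferase of alanine, to 148 ± 7.37 CPM in D, against 55.8 ± 1.93 in C (1.41 ± 0.10). NARS1, which charges the asparagine tRNA, rose by less (0.81 ± 0.10), with 442 ± 26.2 CPM in D and 251 ± 9.24 in C. ALDH18A1, the first enzyme of proline synthesis, fell to 87.3 ± 4.54 CPM in D, against 184 ± 20.1 in C (−1.07 ± 0.11), and GLUL, glutamine synthetase, to 115 ± 6.69 CPM in D, against 179 ± 3.35 in C (−0.64 ± 0.09). SFXN1, SFXN3, SLC25A32, TYMS, AHCYL1, IMPDH2, GART, ADSL, ATIC, ADSS2, PPAT, PAICS, NARS1, GLUL, SP7, BGLAP, IBSP, SPP1, RB1, SPARC, ESRP1, CDH1, KRT8, KRT18, KRT19, CLDN4, EPCAM, CDH5, PECAM1, PTPRC and CD68 were named after their values were seen.

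**Figure D5:**
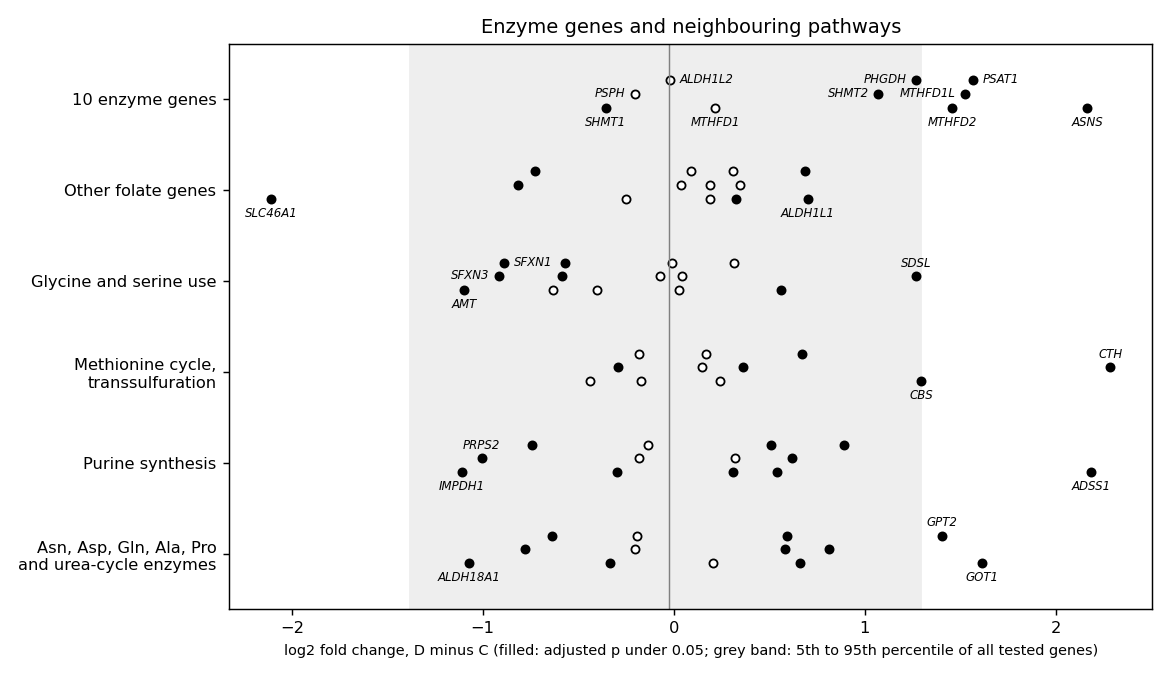
Log2 fold change, D minus C, of the 10 enzyme genes and of the tested genes of 5 neighbouring lists; filled points passed an adjusted p of 0.05 and the grey band spans the 5th to 95th percentile of all tested genes (−1.38 to 1.30). Of the 10 enzyme genes, PSAT1, MTHFD1L, MTHFD2 and ASNS lie beyond the band, as do CTH, ADSS1, GOT1, GPT2 and, on the lower side, SLC46A1.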

How the data were processed

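Gene counts per library were deposited by the authors as whole numbers per symbol and were not normalized. FPKM values, also deposited by the authors, equalled the count divided by the library total and by 1 gene length common to all libraries for 17144 of 17144 genes (relative tolerance 0.001). The submitters' processing notes name the builds GRCm38 and mm10. No source used here gives the aligner, counter or strand setting. Symbols follow human naming, so no coordinates or sequences are given and a planned promoter motif count was not run.

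The count test was that of edgeR 4.0.16 in R 4.3.3 (filterByExpr, TMM factors, quasi-likelihood F test, 2-sided, group as the only term). A call needed an adjusted p (Benjamini-Hochberg, over 12682 genes) under 0.05. The SE was the log2 fold change divided by the square root of F. A floor of 3 counts equals 0.146 to 0.163 CPM, counting error only. Ratios used FPKM and an exact permutation test. The procedure was also run on simulated counts, in which fewer genes changed than were called here and no length trend was set. That run does not give the error rate for these data.

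Members and lists were chosen with earlier results of these data known. Named were the members, list genes called at 2-fold or more, pair partners, 6 regulators and 3 line markers. Of the markers listed for the line, 1 is not reported here and has no part in the sums.

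Alternatives were RLE factors, library size only, no count filter, 1 CPM in 3 libraries, DESeq2 1.42.0, limma-voom, limma-trend (limma 3.58.1) on FPKM after adding 1 or, unfiltered, 0.1, a replicate block, removal of length trends (lowess, span 0.4) and each library left out.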

Additional observations from a re-analysis of the deposited data

How the results depend on the processing

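Over the 16 alternatives the 6 rises of PHGDH, PSAT1, SHMT2, MTHFD2, MTHFD1L and ASNS kept their direction and call, with log2 fold changes between 0.91 (SHMT2, log2(FPKM + 1)) and 2.26 (ASNS, without D replicate 2). Library size only moved the median of all genes to −0.17, in place of −0.02, and the median of the 10 genes to 1.01, in place of 1.17. The number of all genes called higher, 3393, was 2213 on log2(FPKM + 1), and with library size only 2586 were called higher and 4449 lower, against 3509 lower. The number of the 10 genes called lower, 1, was 2 with library size only, log2(FPKM + 1) or log2(FPKM + 0.1), where PSPH joined SHMT1, 0 with the replicate number as a block, and 0 to 1 with a library left out. The cause was not tested. ALDH1L2 (−0.02) changed sign, uncalled, with RLE factors and DESeq2 (0.00 each), with length trends removed (0.15) and without D replicate 3 (0.24), C replicate 1 (0.05) or C replicate 3 (0.01), and ranged from −0.28 to 0.24 with a library left out. MYC changed sign, uncalled, with library size only and on both FPKM scales (−0.01 each), and was called with length trends removed (0.21). CD68 (−0.02) changed sign, uncalled, with RLE factors and DESeq2 (0.01 each) and without D replicate 2 (0.05), and ranged from −0.05 to 0.05 as libraries were left out. The ratio differences kept their sign in every alternative: with a library left out they ranged from 1.31 to 1.50 for SHMT2/SHMT1, 1.12 to 1.31 for MTHFD2/MTHFD1, 1.21 to 1.39 for MTHFD1L/MTHFD1, −1.02 to −0.54 for ALDH1L2/ALDH1L1 and 0.70 to 0.86 for MTHFD2/MTHFD2L. Same-numbered libraries did not deviate together (r between −0.397 and 0.008 over tested genes), so the numbers were not taken as pairs. Some libraries of unlike number did, with r of 0.423 for D replicate 3 with C replicate 2 and 0.345 for D replicate 2 with C replicate 3. For the remaining combinations r lay between −0.114 and 0.094. The cause was not tested. In the fit with a replicate block, 5671 genes were called in place of 6902, SHMT1 (−0.36), SLC25A32 (0.32) and AHCYL1 (−0.29) lost their calls, and the ratios kept their values with a paired exact p of 0.25.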

Other observations

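Regulators of the amino acid and stress responses were read in the same fit. Of 12 listed, 7 rose (58.3%) and 3 fell (25%), beside 26.8% called higher and 27.7% called lower among all tested genes. ATF4 had 1207 ± 206 CPM in D and 509 ± 31.5 in C (log2 fold change 1.25 ± 0.14), and its partner gene CEBPB had 132 ± 29.7 CPM in D and 36.0 ± 1.17 in C (1.87 ± 0.16). DDIT3, a transcription factor downstream of ATF4, had 181 ± 41.2 CPM in D and 47.8 ± 11.2 in C (1.92 ± 0.22), and TRIB3, a pseudokinase that restrains ATF4, had 453 ± 76.2 CPM in D and 53.2 ± 3.53 in C (3.09 ± 0.15). CEBPG had 150 ± 10.3 CPM in D and 57.2 ± 2.98 in C (1.39 ± 0.10). NFE2L2 had 139 ± 24.0 CPM in D and 65.9 ± 3.48 in C (1.08 ± 0.14), and both were named after their values were seen. ATF5 rose by less, with 13.6 ± 1.78 CPM in D and 9.52 ± 0.735 in C (0.51 ± 0.14), a call lost without D replicate 1 (0.46), C replicate 1 (0.46) or C replicate 2 (0.51) and on log2(FPKM + 0.1) (0.35). MYC, another known activator of serine and folate genes, had 95.6 ± 3.96 CPM in D and 86.4 ± 5.57 in C, and its log2 fold change of 0.15 ± 0.10 was not called (adjusted p = 0.24, edgeR). The 3 that fell, a share near that of all tested genes called lower, were kinases of eIF2, the initiation factor whose phosphorylation favours ATF4 translation. They were named after their values were seen: EIF2AK1 (−0.63 ± 0.09), EIF2AK3 (−0.68 ± 0.11) and EIF2AK4 (−0.75 ± 0.17). The other eIF2 kinase listed, EIF2AK2, was not called (0.04 ± 0.16, adjusted p = 0.84, edgeR). It had 82.5 ± 19.1 CPM in D and 80.1 ± 5.22 in C, and was also named after its values were seen.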
